A study of Homo sapiens with 32 samples.

Results

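The semaphorin, neuropilin, plexin, Slit and Robo genes described here are 9 genes of axon and cell guidance: the secreted ligands SEMA3A, SEMA3C and SLIT2, the co-receptors NRP1 and NRP2, and the receptors PLXNA1, PLXNA2, ROBO1 and ROBO2. They were chosen by earlier results on the presence of their peaks in these same lists, so all values below are descriptions and no test is given for them. A peak of m6A (N6-methyladenosine, adenosine of RNA with an added methyl group) was taken as a member where its summit lay in the RefSeq span of 1 of these genes, on either strand. This gave 354 peaks of the 180114 in the 4 peak lists used here. Peaks that overlapped on the same strand were joined to 142 loci, of 66409 in all.

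The lists come from A375, an established human melanoma line, in which m6A-carrying RNA of the chromatin-associated fraction was enriched with an antibody and sequenced (MeRIP-seq) after removal of ribosomal RNA. In one pair of libraries a hairpin targeted METTL3, the enzyme that writes most m6A on messenger RNA (shMETTL3, genotype METTL3 knockdown), and in the other pair the cells had a control hairpin (shControl, genotype WT). The series has 32 samples, and the others are not analysed here. The labels do not say whether replicates were separate cultures, how many hairpins or clones were used, or how far METTL3 fell, and the difference between replicates may reflect handling alone.

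The lists held 44108 and 42969 peaks in shMETTL3 and 45345 and 47692 in shControl, with median fold enrichments of 3.92, 3.93, 3.84 and 3.65. The read depth behind them is unknown. METTL3 itself carried 4 and 4 loci in the shMETTL3 lists and 5 and 4 in the shControl lists, which does not measure its RNA. Of the melanoma genes looked up, MITF, AXL and NGFR had peaks in every list, and SOX10, PMEL, MLANA, TYR and DCT had none. A peak needs RNA as well as its methylation. In these lists a lower RNA level and less methylation cannot be told apart.

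Secreted semaphorins bind neuropilins, which lack a signalling domain of their own, and the bound complex signals through A-type plexins to the cytoskeleton. Slits bind Robo receptors and mostly repel growing axons and migrating cells. Both systems guide the neural crest, the embryonic cells from which melanocytes arise.

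Where a locus lay at or near the start of a transcript, the promoter windows show which RefSeq start was close to it. They do not show which transcript carries the peak. Of the 9 genes, 7 had an entry among the RefSeq promoters (GRCh38.p14), with 10 windows in all. The 5 windows that overlap a locus or lie within 50 bases of one are printed 5′ to 3′ on the strand of the gene. Each is 300 bases long and position 251 is the first transcribed base. Capitals mark GGAC, the most common core of the m6A consensus. This motif was searched on both strands; 66.3% of all 35116 promoter windows hold it on the strand of the gene and 66.1% on the other strand.
SLIT2 (chr4:20251655-20251954, plus strand): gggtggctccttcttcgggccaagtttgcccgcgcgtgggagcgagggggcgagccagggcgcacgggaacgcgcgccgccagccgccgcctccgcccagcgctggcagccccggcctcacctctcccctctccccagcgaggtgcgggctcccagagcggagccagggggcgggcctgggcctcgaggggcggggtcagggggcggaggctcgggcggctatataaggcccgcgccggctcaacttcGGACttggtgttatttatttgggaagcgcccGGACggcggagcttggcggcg
NRP2 (chr2:205682251-205682550, plus strand): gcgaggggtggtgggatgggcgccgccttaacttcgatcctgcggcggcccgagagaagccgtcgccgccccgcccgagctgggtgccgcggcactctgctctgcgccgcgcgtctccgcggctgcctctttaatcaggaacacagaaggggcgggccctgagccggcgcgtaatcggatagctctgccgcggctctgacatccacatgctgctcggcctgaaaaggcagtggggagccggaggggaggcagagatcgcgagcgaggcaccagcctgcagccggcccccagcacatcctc
PLXNA2 (chr1:208244335-208244634, minus strand): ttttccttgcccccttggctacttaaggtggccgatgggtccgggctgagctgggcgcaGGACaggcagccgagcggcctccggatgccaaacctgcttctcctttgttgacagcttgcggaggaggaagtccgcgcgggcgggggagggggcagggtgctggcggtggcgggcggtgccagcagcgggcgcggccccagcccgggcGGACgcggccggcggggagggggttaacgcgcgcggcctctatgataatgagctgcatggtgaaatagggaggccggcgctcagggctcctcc
ROBO1, downstream start (chr3:79019410-79019709, minus strand): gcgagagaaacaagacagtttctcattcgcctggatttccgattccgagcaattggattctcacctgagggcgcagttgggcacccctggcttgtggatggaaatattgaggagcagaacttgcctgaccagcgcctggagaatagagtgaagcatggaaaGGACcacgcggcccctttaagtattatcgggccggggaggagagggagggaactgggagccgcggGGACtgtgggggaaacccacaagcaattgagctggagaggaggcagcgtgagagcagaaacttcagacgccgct
SEMA3C, downstream start (chr7:80919002-80919301, minus strand): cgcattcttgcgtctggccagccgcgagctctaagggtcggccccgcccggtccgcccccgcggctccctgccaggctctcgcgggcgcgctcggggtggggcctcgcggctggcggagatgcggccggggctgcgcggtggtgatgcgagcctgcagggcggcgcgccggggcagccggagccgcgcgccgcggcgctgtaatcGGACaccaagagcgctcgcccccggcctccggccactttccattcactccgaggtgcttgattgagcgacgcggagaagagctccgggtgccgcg

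The motif begins at positions 249 and 280 in the SLIT2 window, 60 and 208 in that of PLXNA2, 162 and 227 in that of ROBO1 and 206 in that of SEMA3C. The NRP2 window holds none. A match is a description of the letters, and only the bases from position 251 on are transcribed from that start. The locus beside the SLIT2 window was found in both shMETTL3 lists and neither shControl list, those of NRP2, ROBO1 and SEMA3C were in all 4 lists, and that of PLXNA2 was in both shControl lists and 1 shMETTL3 list.

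Of the 9 genes, 6 carried fewer peaks in both shMETTL3 lists than in either shControl list, and 2, SLIT2 and ROBO2, carried more. The peak numbers of PLXNA2 overlapped. Among all 14097 genes with a peak, the numbers lay below in 23.5% and above in 18.6%. Counted by loci, where a locus split into several peaks counts once, 6 genes were again lower and 2 higher, against 23.6% and 19.1% of all genes. PLXNA2 was then among the 6, and PLXNA1 overlapped. These comparisons with all genes take no account of gene length or number of loci. In sum the members had 74 and 78 peaks in shMETTL3 and 102 and 100 in shControl, or 76 ± 2.83 against 101 ± 1.41 (SD, n = 2 each). Peaks of the members covered 28869 and 28099 bp in shMETTL3, against 34328 and 35284 bp in shControl.

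**Figure D1:**
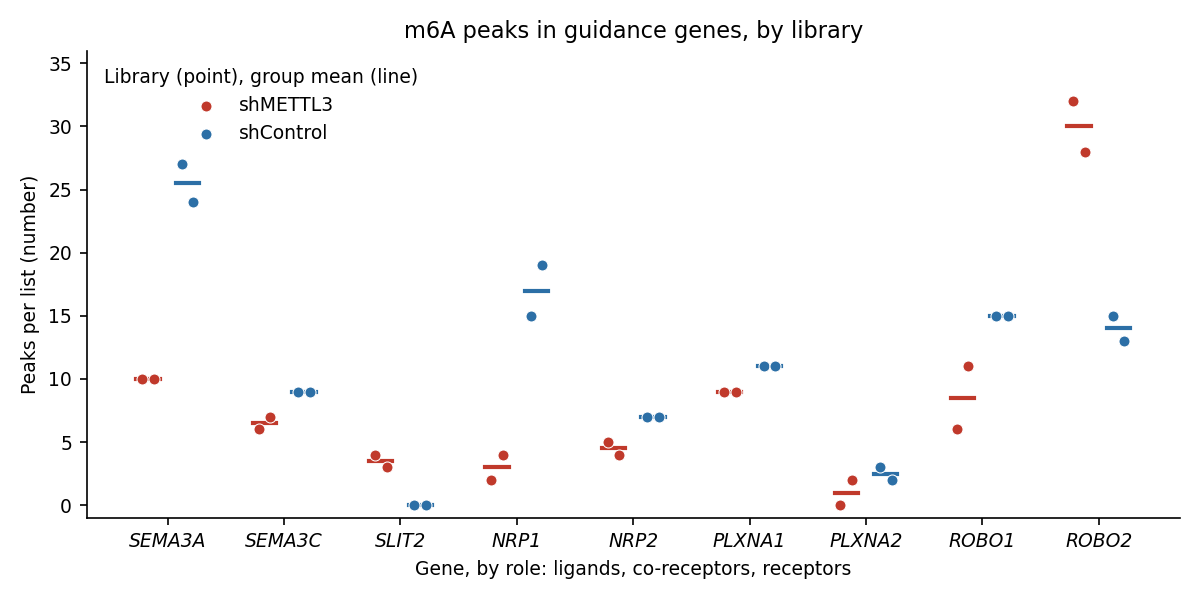
Number of m6A peaks in each guidance gene (vertical axis) for the 9 genes (horizontal axis); points are the libraries of shMETTL3 (red, left) and shControl (blue, right) and lines are group means. SEMA3A and NRP1 lie lower in shMETTL3 (10 and 10 against 27 and 24; 2 and 4 against 15 and 19) and ROBO2 lies higher (32 and 28 against 15 and 13).

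A locus in both shMETTL3 lists and neither shControl list is called knockdown-only here, and a locus in both shControl lists and neither shMETTL3 list control-only. The members held 13 knockdown-only loci among 53 in both shMETTL3 lists (24.5%, against 18.9% of all loci) and 31 control-only loci among 79 in both shControl lists (39.2%, against 22.6% of all loci). Because the choice of the genes used this contrast, the shares are given as a description. They rest on few genes. SEMA3A and NRP1 held 23 of the 31 control-only loci, and without them the share was 18.2%. ROBO2 and SLIT2 held 10 of the 13 knockdown-only loci, and without them the share was 10%.

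The knockdown-only share did not stand above that of all loci when weak peaks were left out. With folds of 4 or more it was 19.4% (6 of 31 loci), against 27.6% of all loci. With a −log10 q of at least 20 it was 16.7% (6 of 36), near the 19.2% of all loci. Each of these shares rests on 6 knockdown-only loci. The control-only share was 47.9% and 46.6% in these settings, against 25% and 23.3% of all loci. A further 37 member loci (26.1% of 142, against 35.7% of all loci) were in all 4 lists, and 61 had other patterns, of which 18 were in a single shMETTL3 list and 23 in a single shControl list.

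**Figure D2:**
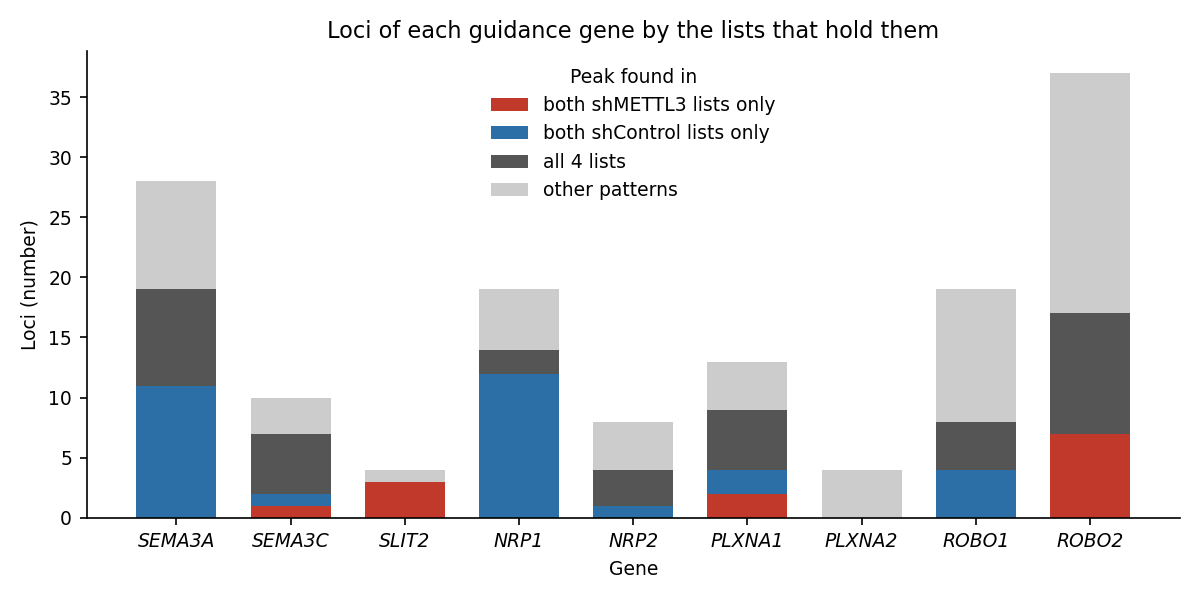
Loci of each guidance gene (number, vertical axis), stacked by the lists that hold a peak: both shMETTL3 lists only (red), both shControl lists only (blue), all 4 lists (dark grey) and other patterns (light grey). The loci of 1 group alone are blue in SEMA3A (11) and NRP1 (12), red in ROBO2 (7) and SLIT2 (3), and PLXNA2 has neither.

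SEMA3A, the prototype repulsive semaphorin, had 10 and 10 peaks in shMETTL3, against 27 and 24 in shControl. Its 28 loci lay on the minus strand of chromosome 7 within a span of 537 kb (hg38, 83955777 to 84492725). None was knockdown-only, 11 were control-only, and 8 were in all 4 lists. The bases covered by its peaks numbered 4938 and 5096 in shMETTL3 and 11521 and 12293 in shControl. Of 14097 genes with a locus, 24, itself included, had at least as many control-only loci. This rank takes no account of gene length or number of loci.

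The loci that SEMA3A kept included its strongest. The locus at 83960673 to 83961950, 5779 bp from the gene end, had folds of 9.45 and 14.6 in shMETTL3 replicates 1 and 2, against 11.8 and 12.7 in shControl replicates 1 and 2. The lowest of these lay at the 97.7th percentile of its list, and the groups overlapped. A broad locus at 83992130 to 83994741 had 7.82 and 6.67 in shMETTL3, against 6.61 and 6.37 in shControl. One at 84194520 to 84195036, near the middle of the gene, had 11.3 and 7.26 in shMETTL3, against 6.13 and 4.98 in shControl. Folds are the authors' values for each peak, scaled within each list in a way that is not stated, so they place a peak in its own list and do not give a change of methylation.

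The control-only loci of SEMA3A varied in strength, from the 16.5th to the 91.5th percentile of the shControl lists, and spread from 132556 to 509431 bp from the gene start. The highest-ranked, at 84358764 to 84360502, is 1739 bp wide and had folds of 4.77 and 5.11 in shControl replicates 1 and 2. The next were at 84244322 to 84244705 (5.21 and 4.64) and at 83991058 to 83991916 (4.61 and 4.68). The percentiles of these 3 ranged from 68.3 to 80.3. The last of these lies between kept loci of the same gene, so neighbouring loci differed in class.

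SEMA3C, a semaphorin bound by both neuropilins, had 6 and 7 peaks in shMETTL3, against 9 and 9 in shControl. It had 1 knockdown-only locus, 1 control-only locus and 5 loci in all 4 lists. The knockdown-only locus, at 80876731 to 80877054, was weak, with folds of 2.14 and 1.82 (5.18th and 1.77th percentile of the shMETTL3 lists). The control-only locus, at 80756082 to 80756309, had 4.21 and 4.69. The strongest kept locus was at 80748917 to 80749153, with 7.43 and 9.06 in shMETTL3, against 9.41 and 7.93 in shControl. The first locus of the gene overlaps the downstream of its 2 RefSeq starts by 108 bases of the printed window, and no locus touched the upstream start. Placing is uncertain for 1 SEMA3C locus that also lies in the overlapping gene LOC124901686.

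SLIT2, a secreted ligand of the Robo receptors, had 4 and 3 peaks in shMETTL3 and 0 and 0 in shControl. On the plus strand of chromosome 4, 3 of its 4 loci were knockdown-only. A pair of them lay at the gene start. The first, at 20251962 to 20252650, begins 8 bases beyond the printed window and had folds of 4.27 and 5.47 in shMETTL3 replicates 1 and 2. The second, at 20252877 to 20253493, had 2.82 and 4.8. The third, at 20619086 to 20619468, had its summit 1378 bp from the gene end and folds of 4.58 and 5.42. The remaining locus, at 20618817 to 20618971, was in shMETTL3 replicate 1 alone, with a fold of 2.8. Between the loci at the start and those at the end no peak was found in any list.

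NRP1, the co-receptor of SEMA3A and also of vascular endothelial growth factor, had 2 and 4 peaks in shMETTL3, against 15 and 19 in shControl (mean 3 ± 1.41 against 17 ± 2.83, SD, n = 2 each). It lies on chromosome 10 (33177493 to 33334667). Each of its 19 loci was on the minus strand, which was for this reason taken as the strand of the gene. Of the 15 loci in both shControl lists, 12 were control-only, 2 were in all 4 lists and 1 was also in shMETTL3 replicate 2. No locus was found in a shMETTL3 list alone. Of all genes, 20 had at least 12 control-only loci, again without regard to gene length or number of loci.

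The strongest control-only loci of NRP1 ranked high in the shControl lists. That at 33192296 to 33192499 had folds of 8.12 and 7.6 in shControl replicates 1 and 2, and that at 33186269 to 33186610 had 8.17 and 7.6. These values lay at the 96.3rd percentile or above. The third, at 33221762 to 33221930, had 6.27 and 6.01.

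The gene end of NRP1 stood apart from this. Its locus at 33179193 to 33180504, with the summit 2668 bp inside the end, had folds of 18 and 18.1 in shMETTL3 replicates 1 and 2, against 9.06 and 15.1 in shControl replicates 1 and 2. It was the highest fold of all peaks in shMETTL3 replicate 1 and ranked 2nd in replicate 2, while it ranked 890th and 4th in shControl replicates 1 and 2. The same gene thus held a top peak of the shMETTL3 lists and 12 loci that these lists lacked. The other locus in all 4 lists, at 33213430 to 33213786, had 4.67 and 6.47 in shMETTL3, against 4.12 and 5.01 in shControl, and its place is shared with the lncRNA gene LOC124902407.

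**Figure D3:**
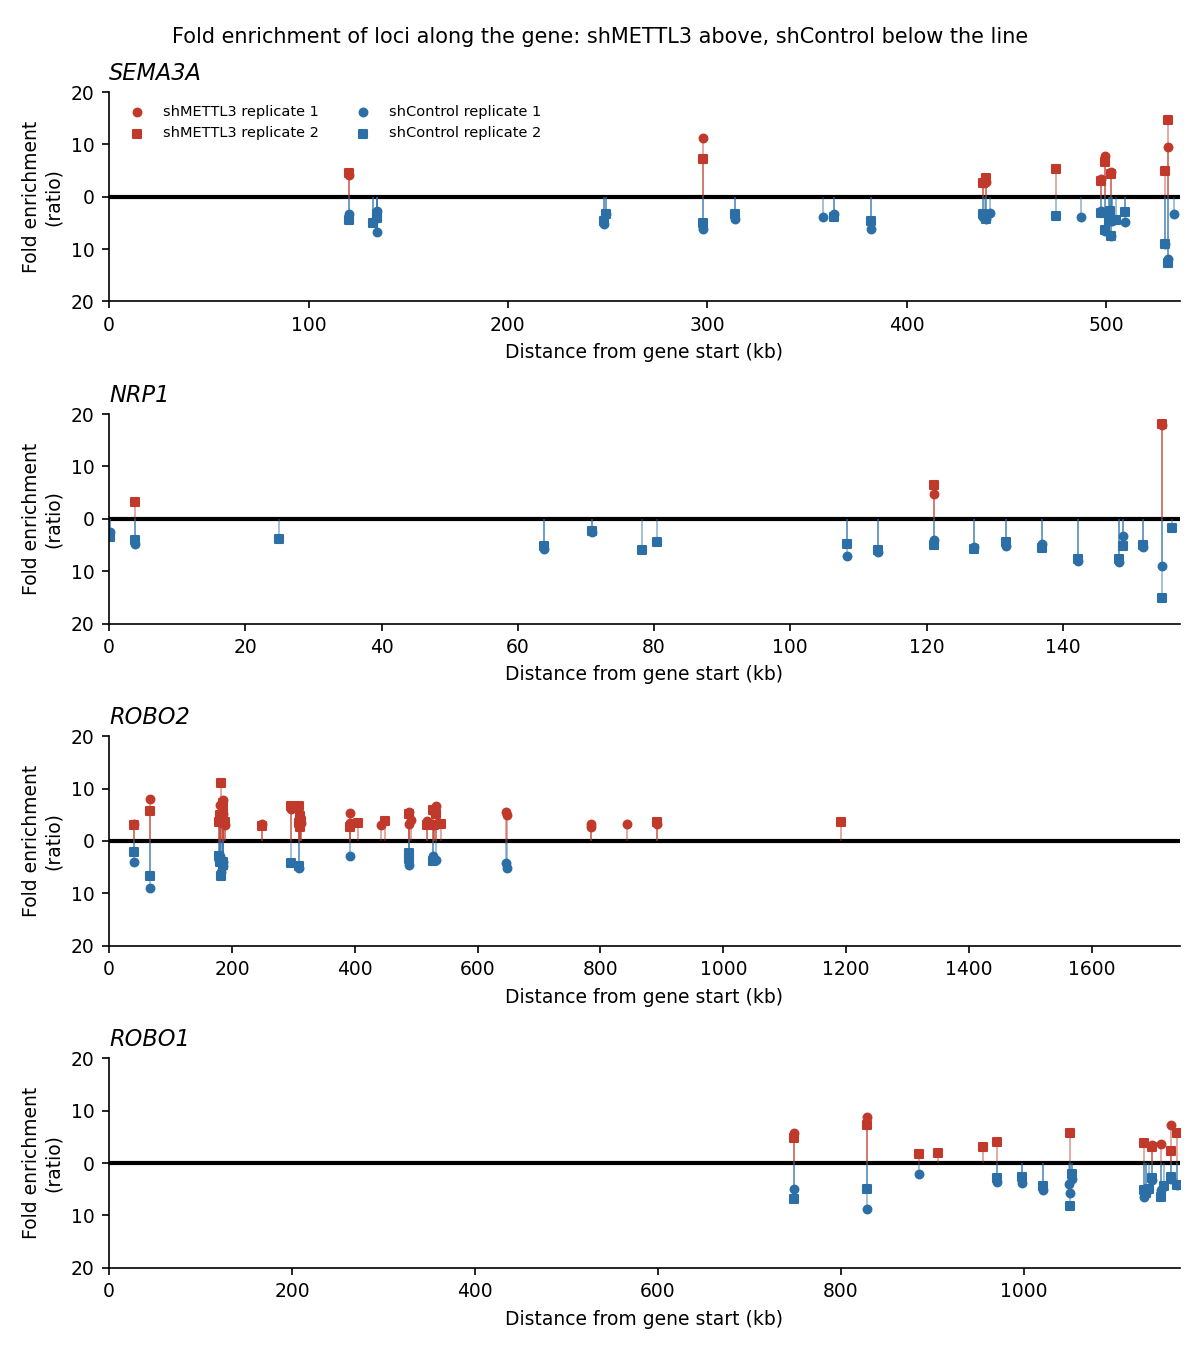
Fold enrichment (ratio, authors' value per peak) of each locus on the strand of the gene, against distance from the gene start (kb), for SEMA3A, NRP1, ROBO2 and ROBO1; shMETTL3 points in red above the line, shControl points in blue below it, circles replicate 1 and squares replicate 2. NRP1 shows 12 control-only loci and a strong locus near its end in all 4 lists (18 and 18.1 above, 9.06 and 15.1 below). ROBO2 shows 7 knockdown-only loci, above the line alone, and 10 loci in all 4 lists.

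NRP2, the second neuropilin, had 5 and 4 peaks in shMETTL3, against 7 and 7 in shControl. It had 0 knockdown-only loci, 1 control-only locus and 3 in all 4 lists. Its strongest locus begins just inside the gene start (chromosome 2, 205682509 to 205683362) and had folds of 8.95 and 9.2 in shMETTL3, against 10.4 and 10.2 in shControl. Each of these lay at or above the 96.8th percentile of its list. The locus near the gene end, at 205794823 to 205795319, had 5.6 and 4.65 in shMETTL3, against 4.87 and 5.09 in shControl. The control-only locus, at 205749602 to 205749772, had 5.1 and 6.67 in shControl.

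PLXNA1, a receptor that signals for neuropilin-bound semaphorins, had 9 and 9 peaks in shMETTL3, against 11 and 11 in shControl. By loci it had 9 and 8 in shMETTL3, against 9 and 9 in shControl, since its locus at 127033788 held 1 peak in each shMETTL3 list and 3 in each shControl list. Its peaks covered more bases in shMETTL3, 4832 and 4386 bp, against 4288 and 4253 bp in shControl. It is the shortest gene of the 9, with 54.3 kb, and had 2 knockdown-only loci, 2 control-only loci and 5 in all 4 lists. The knockdown-only loci lay inside the last 10 kb of the gene. That at 127030187 to 127030351 had folds of 5.54 and 5.39, and that at 127028876 to 127029030 had 3.95 and 9.05 in shMETTL3 replicates 1 and 2. Both control-only loci were weak, with 2.17 and 2.54 at 127036977 to 127037356 and 2.07 and 1.85 at 127014447 to 127014619. The broad kept locus at 127033788 to 127035719 had 7.85 and 6.49 in shMETTL3, against 8.01 and 8.34 in shControl.

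PLXNA2, its relative, had 0 and 2 peaks in shMETTL3 and 3 and 2 in shControl (0 and 1 loci in shMETTL3, 3 and 2 in shControl), and no locus that was knockdown-only or control-only. The locus at its start, named here after its values were seen, lies at 208243677 to 208244324 on the minus strand of chromosome 1. It had no peak in shMETTL3 replicate 1 and a fold of 4.14 in replicate 2, against 9.22 and 9.31 in shControl replicates 1 and 2. The single shMETTL3 fold stood below both shControl folds, which cannot show that the groups did not overlap. The presence of a peak differed between the shMETTL3 replicates. Of the 4 PLXNA2 loci, 2 also lie in the overlapping gene LOC105372884, so their placing is uncertain.

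ROBO1 and ROBO2, the Slit receptors, both lie on chromosome 3 and differed in direction. ROBO1 had 6 and 11 peaks in shMETTL3, against 15 and 15 in shControl, with 0 knockdown-only loci, 4 control-only loci and 4 in all 4 lists. A further 5 loci were in both shControl lists and in 1 shMETTL3 list, so the count depends on which shMETTL3 library is taken. Knockdown-only minus control-only loci came to −8 without shMETTL3 replicate 2 and −3 without replicate 1, and to −2 with lists of equal length, instead of −4. The strongest control-only locus, at 78633960 to 78634147, had folds of 5.76 and 5.79 in shControl. The strongest kept locus, at 78938560 to 78939030, had 8.82 and 7.36 in shMETTL3, against 8.72 and 4.96 in shControl.

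All 19 loci of ROBO1 lay downstream of or at the second RefSeq start, whose window is printed above. The locus that covers this start, at 79018346 to 79019593, shares 184 bases with the window and had folds of 5.77 and 4.71 in shMETTL3, against 4.9 and 6.81 in shControl. Upstream of it no locus was found in any list, up to the first start.

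ROBO2 had 32 and 28 peaks in shMETTL3, against 15 and 13 in shControl (mean 30 ± 2.83 against 14 ± 1.41, SD, n = 2 each). Of its 37 loci, 7 were knockdown-only, 0 were control-only and 10 were in all 4 lists. Another 14 loci were in a single shMETTL3 list and none was in a single shControl list. Of all genes, 53 had at least 7 knockdown-only loci, without regard to gene length or number of loci. A pair of the single-list loci lay on the opposite strand, where ROBO2 is not annotated.

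The 7 knockdown-only loci of ROBO2 lay between the 19.6th and 67.7th percentiles of the shMETTL3 lists. The highest-ranked were at 76217102 to 76217282 (folds of 4.27 and 4.75 in shMETTL3 replicates 1 and 2), at 76219235 to 76219681 (3.51 and 3.83) and at 76798015 to 76798287 (3.31 and 3.63). With a fold of at least 4 the knockdown-only minus control-only loci of ROBO2 came to 3 instead of 7, and with a −log10 q of at least 20 to 2. It came to 14 without shMETTL3 replicate 1 and 16 without replicate 2, since loci in a single shMETTL3 list then count. Among the kept loci, that at 75973354 to 75974296 had 8 and 5.78 in shMETTL3, against 8.91 and 6.66 in shControl. The kept locus at 76090602 to 76091542 had 7.78 and 7.21 in shMETTL3, against 4.87 and 4.59 in shControl, values that did not overlap. That at 76214464 to 76216270 had 4.27 and 6.64 in shMETTL3, against 5.17 and 4.71 in shControl, and here the groups overlapped.

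Loci of ROBO2 were gathered in the first part of its 1740 kb span. Of the 35 on the plus strand, 34 lay upstream of the last RefSeq start at 77040099, among them all 7 knockdown-only and all 10 kept loci, and 17 lay upstream of the start at 76310880. The knockdown-only loci ran from 188420 to 891519 bp from the gene start and the kept ones from 39858 to 527442 bp. A knockdown-only locus and a kept one also lie in the pseudogene CAP1P1, so their placing is uncertain. A further 2 loci, each in a single shMETTL3 list, lie in the lncRNA gene LOC124900544. In ROBO1, by contrast, each summit lay 748660 bp or more from the gene start.

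Position within the gene can be given over all members. In the last 10 kb of the spans, 3 of 12 loci in both shMETTL3 lists were knockdown-only and 4 of 16 in both shControl lists were control-only. In the first 5 kb the numbers were 2 of 4 and 1 of 5. Elsewhere they were 8 of 37 and 26 of 58. Over all 3422 genes at least as long as PLXNA1 that had a locus and a promoter entry, the knockdown-only share was 17% in the last 10 kb, 20.8% in the first 5 kb and 19.6% elsewhere. The control-only share of these genes was 15.7%, 15.2% and 22.7% at the same places. The 26 control-only loci elsewhere include 11 of SEMA3A and 8 of NRP1.

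A locus joined from more lists is wider by construction, so widths are compared within a class only. The median width in the members was 305 bp for knockdown-only, 221 bp for control-only and 497 bp for loci in all 4 lists, against 286, 252 and 478 bp over all loci. The control-only loci of the members had median folds of 4.77 and 4.61 in the shControl lists, against 3.56 and 3.45 for all control-only loci. SEMA3A and NRP1 held 23 of these 31 loci, so the medians mainly describe these genes. All members were chosen on these lists. The knockdown-only loci of the members had median folds of 3.51 and 3.83 in the shMETTL3 lists, against 3.71 and 3.73.

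No peak lay close outside the spans. The nearest peak outside on the same strand was 84107 bp beyond the end of SLIT2, with a fold of 4.66 in shMETTL3 replicate 1. The peak just inside that end lay 1355 bp from it, with 4.58 in the same library. At the other edges the nearest outside peak was 130460 bp or more away.

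The wider pathway was described with 57 other genes in 5 lists, of which 36 had a locus. They held 14 knockdown-only loci among 101 in both shMETTL3 lists (13.9%, against 18.9% of all loci) and 43 control-only loci among 138 in both shControl lists (31.2%, against 22.6% of all loci). More knockdown-only than control-only loci were found in 7 genes, and the reverse in 15. Of the 43 control-only loci, DCC held 8 and SEMA3B and SEMA4B 6 each, so the pooled share leans on a few genes. Loci on the strand of the gene were counted, and each list rests on few genes.

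Among the other semaphorins 4 of 18 loci were knockdown-only (22.2%, against 18.9% of all loci) and 13 of 29 control-only (44.8%, against 22.6%). SEMA3B, a secreted semaphorin described as a tumour suppressor, had 1 and 1 loci in shMETTL3, against 7 and 7 in shControl, and 6 of the 7 were control-only. SEMA4B, a membrane-bound semaphorin, had 3 and 2 in shMETTL3, against 10 and 8 in shControl, and also 6 control-only loci. SEMA4D, the ligand of plexin B1, had 2 and 4 loci in shMETTL3 and none in shControl, with 2 knockdown-only. SEMA3E, which binds plexin D1, kept 4 loci in all 4 lists. For SEMA3B and SEMA4B the groups did not overlap, in the direction of SEMA3A. For SEMA4D the order was that of SLIT2.

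Of the other plexins' loci, 0 of 8 were knockdown-only (0%, against 18.9% of all loci) and 5 of 14 control-only (35.7%, against 22.6%). PLXNB2 had 2 control-only loci and kept 3, PLXNB3 had 2 and kept 0, and PLXND1 kept 2. Of the other Slits and Robos, ROBO4 alone had a locus in both shControl lists, which was control-only; SLIT1, SLIT3 and ROBO3 had none in any list.

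The netrins and their receptors are a guidance system beside the Slits. Of their loci, 0 of 16 were knockdown-only (0%, against 18.9% of all loci) and 13 of 34 control-only (38.2%, against 22.6%). DCC, the netrin receptor, had 10 and 7 loci in shMETTL3, against 23 and 25 in shControl, with 8 control-only and 7 kept. NTNG1, a membrane-anchored netrin relative, had 1 and 2 in shMETTL3, against 7 and 6 in shControl, with 4 control-only. NTN4 kept 4 loci. Placing is uncertain where another gene overlaps, for 3 loci of DCC (LOC124904304), 2 of NTN4 (PGAM1P5), 1 of SEMA3B (MIR6872) and 1 of SEMA4B (RPS12P26).

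The intracellular effectors stood near the series as a whole, with 10 of 59 knockdown-only (16.9%) and 11 of 60 control-only (18.3%). MICAL3, an actin-oxidizing enzyme downstream of plexins, had 2 knockdown-only and 4 control-only loci and kept 10. FARP2, an exchange factor bound by plexin A1, had 3 knockdown-only and 0 control-only loci, and 1 of the 3 may belong to the overlapping gene LOC105373973. SRGAP3, a GTPase-activating protein downstream of Robo, had 1 and 2, and ARHGEF12, which binds B-type plexins, had 0 and 2 and kept 7.

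**Figure D4:**
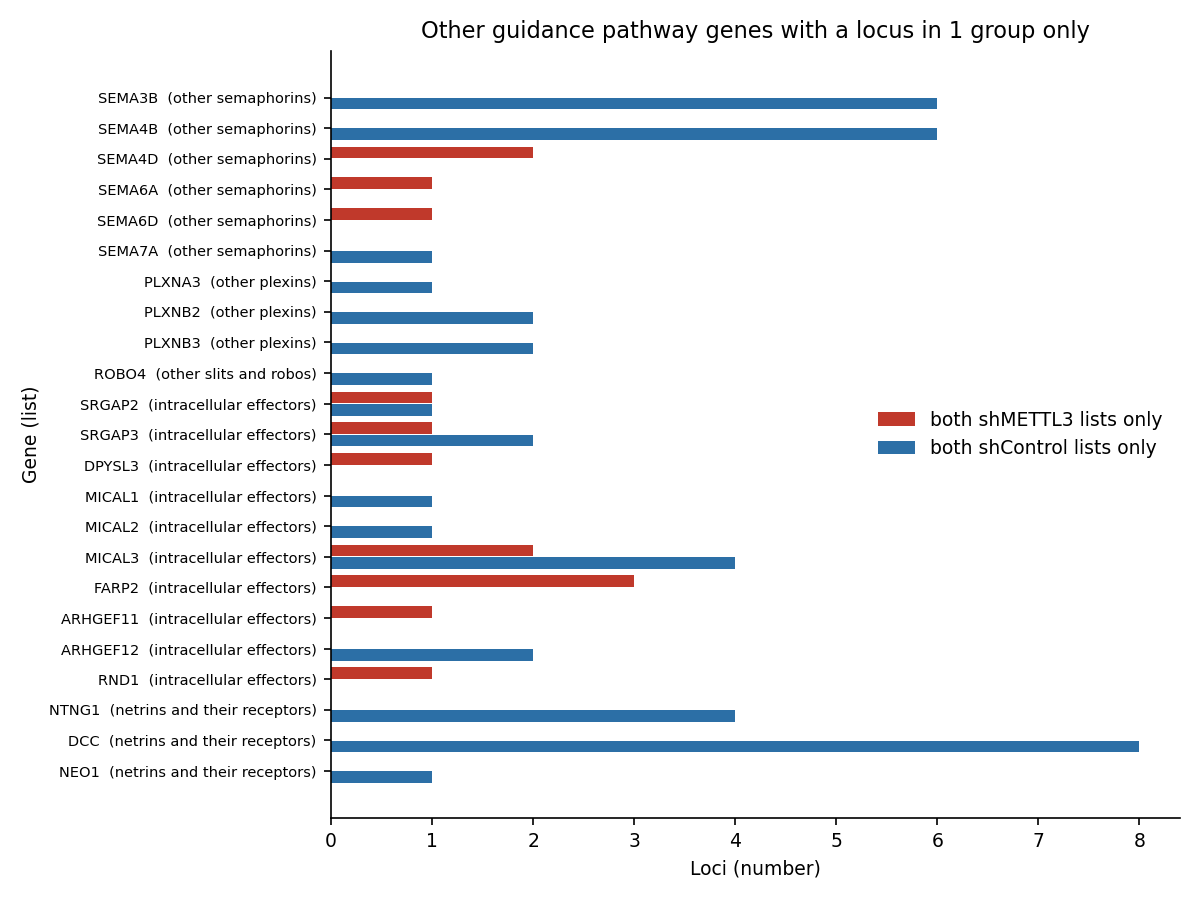
Loci found in both shMETTL3 lists only (red, upper bar) and in both shControl lists only (blue, lower bar), in numbers on the horizontal axis, for each of the 57 other pathway genes that had any, with its list in brackets. DCC has 8 control-only loci, SEMA3B and SEMA4B 6 each, and FARP2 has 3 knockdown-only loci.

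Genes with like numbers of peaks were looked up over the 4 lists, by Euclidean distance of log2(peaks + 1). Nearest to NRP1 were CPLANE1 and PRPF8, each with 2 and 3 peaks in shMETTL3 and 13 and 13 in shControl (distance 0.637), and COL13A1 with 3 and 4 in shMETTL3 and 14 and 13 in shControl (0.668). Among the genes nearest to ROBO2 was LOC105370108, with 29 and 24 peaks in shMETTL3 and 17 and 16 in shControl (0.415). CCBE1 followed with 26 and 26 in shMETTL3 and 14 and 17 in shControl (0.484).

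**Figure D5:**
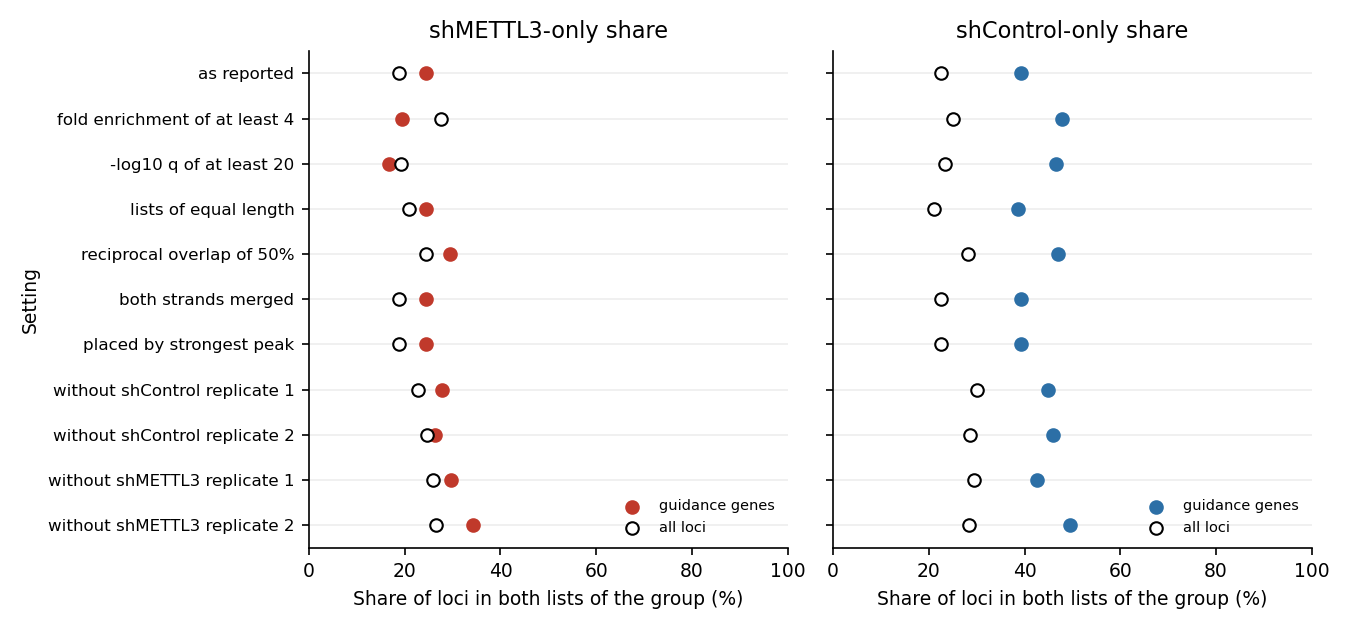
Share of loci (%, horizontal axis) in both shMETTL3 lists that were knockdown-only (left, red) and in both shControl lists that were control-only (right, blue), for the 9 guidance genes (filled) and all loci (open), under each setting (rows). The control-only share of the guidance genes, which were chosen on these lists, lies above that of all loci in each setting shown (38.7% to 49.4%, against 21.1% to 30.1%). Without SEMA3A and NRP1 it was 18.2% as reported, against 22.6% of all loci. With a fold of at least 4 the knockdown-only share of the guidance genes is 19.4% (6 of 31 loci), against 27.6% of all loci. With a −log10 q of at least 20 it is 16.7% (6 of 36), near the 19.2% of all loci.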

How the data were processed

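Per the submitters' processing notes, MACS2 2.2.7.1, HISAT2 2.1.0, Bowtie2 2.4.2, Trim Galore 0.6.6 and SAMtools were used with hg38, in roles they do not state. The authors deposited 1 peak list per library, called per strand per the peak names, whose knockdown lists carry a "ko" prefix. The deposited fold enrichment is a ratio, and the authors' p-value and q-value are −log10 values, each q at 2.00 or above. Left unused was the authors' score, about 10 times that −log10 q in whole numbers. The part of inputs and spike-in in the calls is not stated in the sources used.

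Peaks sharing at least 1 bp on a strand were joined to loci (Python 3.11.15, pandas 2.3.3) and placed by summit in RefSeq gene spans (GRCh38.p14, the same build as hg38; no exons). SEMA3A and NRP1 took the strand of their peaks. Merging was tested on simulated loci set well apart, which does not cover closely spaced or split peaks. The members, lists and rules were chosen with earlier results of these data known. Named were all 9 genes, up to 3 loci per class whose lowest fold was highest, and of each other list up to 4 genes with at least 2 moved and 2 with most shared loci. A result that this rule also names is not reported here. No p-value was computed: no test fits members chosen on these lists. Alternatives were a fold or q minimum, lists of equal length, other overlap, strand or placing rules, and leaving out each library.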

Additional observations from a re-analysis of the deposited data

How the results depend on the processing

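Knockdown-only minus control-only loci kept their sign in all 60 values of the 6 genes with a difference (SLIT2, ROBO2, SEMA3A, NRP1, NRP2 and ROBO1) over 10 settings. Because the genes were chosen on this contrast and the settings reuse the same lists, a kept sign is partly fixed in advance. Merging both strands or placing by the strongest peak changed none of the values of these genes. PLXNA1, PLXNA2 and SEMA3C, at 0, moved to values between −2 and 2. The 13 knockdown-only loci came to 6 with a fold of at least 4 and to 6 with a −log10 q of at least 20, and loci in all 4 lists came to 19 instead of 37 under that fold minimum. Leaving out 1 library gave 14 to 24 knockdown-only loci, 34 to 45 control-only loci and 39 to 46 loci in every remaining list. It gave shares of 26.4% to 34.3% knockdown-only, against 22.8% to 26.5% of all loci, and 42.5% to 49.4% control-only, against 28.4% to 30.1% of all loci. Among these, the knockdown-only gap was smallest without shControl replicate 2, at 26.4% against 24.6%. These counts rise by construction, since fewer lists decide a class. Without shMETTL3 replicate 1 the knockdown-only loci numbered 22 and without replicate 2, 24. Depth is unknown, so a missing peak is not shown to be a missing mark. The replicate number was added as a block after seeing the data. The members' peak numbers then differed (shMETTL3 minus shControl) by −28 for number 1 and −22 for number 2. Their mean of −25 equals the value without the block by construction, so it is no check. Locus classes need both lists of a group and were not blocked.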
